A study of Mus musculus with 30 samples.

Results

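Hnf4a, Foxa1, Foxa2, Foxa3, Cebpa, Onecut1, Nr1h4 and Pax8 are transcription factor genes that mark liver or kidney epithelium. They were found by symbol in the 5 deposited tables of fragment counts, 1 per tissue, as 8 of 48709 genes. Their levels were followed in C57BL/6 mice at the adult stage, in 30 libraries from liver, kidney, spleen, brain and muscle, each tissue with 3 wild-type (WT) and 3 Ctcf heterozygous (Ctcf+/-) libraries. Both genotypes had the same strain and stage, the muscle was quadriceps femoris, and small pieces of tissue were used for RNA. The labels give neither sex, exact age, litter nor the allele's origin, and they do not say that replicates came from separate mice, so p-values measure only the spread between these libraries. In bulk tissue, fewer cells of a type and less RNA per cell cannot be told apart.

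Hepatocyte identity rests on a small circuit of factors that bind each other's genes and the genes of liver metabolism. HNF4A is a nuclear receptor that works in hepatocytes and in the proximal tubule of the kidney. FOXA1, FOXA2 and FOXA3 are forkhead proteins, known for opening closed chromatin at liver genes. C/EBPα, made from Cebpa, is a leucine zipper factor of liver, fat and myeloid cells. Onecut1 encodes HNF6, a cut-homeodomain factor of liver, bile duct and pancreas. Nr1h4 encodes FXR, the nuclear receptor that senses bile acids in liver, intestine and kidney. PAX8 is a paired-box factor of the nephron and of the thyroid. CTCF, whose gene is lost from 1 copy in the heterozygous mice, organises chromatin loops and insulates regulatory elements.

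The promoters of these genes are where the circuit's factors and CTCF may bind, so windows with a matching motif are shown for 3 members the results turn on. RefSeq promoter windows on GRCm38.p6, from 250 bases before to 50 bases after each start, were matched for 8 of 8 members and gave 11 windows, with 2 for Hnf4a and 3 for Foxa2. The 250 bases before the start are printed 5′ to 3′ on the gene's strand, with motif matches in capitals. The windows are Hnf4a distal at chr2:163506607-163506856, Foxa1 at chr12:57546112-57546361 on the minus strand, and Cebpa at chr7:35119043-35119292.
Hnf4a distal: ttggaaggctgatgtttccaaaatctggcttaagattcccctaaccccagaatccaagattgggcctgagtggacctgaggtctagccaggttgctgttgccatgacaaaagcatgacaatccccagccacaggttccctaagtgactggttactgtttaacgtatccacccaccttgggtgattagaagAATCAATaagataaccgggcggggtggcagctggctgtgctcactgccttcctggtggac
Foxa1: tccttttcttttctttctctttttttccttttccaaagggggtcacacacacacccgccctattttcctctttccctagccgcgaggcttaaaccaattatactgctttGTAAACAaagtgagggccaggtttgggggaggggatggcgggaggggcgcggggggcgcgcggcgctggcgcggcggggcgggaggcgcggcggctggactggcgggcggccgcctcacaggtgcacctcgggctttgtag
Cebpa: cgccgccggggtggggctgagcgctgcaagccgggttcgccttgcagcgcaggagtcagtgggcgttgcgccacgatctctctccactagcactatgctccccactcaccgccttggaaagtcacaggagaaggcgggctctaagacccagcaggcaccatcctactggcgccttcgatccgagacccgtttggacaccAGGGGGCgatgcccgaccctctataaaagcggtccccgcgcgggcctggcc

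The capitals in the distal Hnf4a window mark ATTGATT, a ONECUT motif, on the opposite strand and starting 60 bases before the start. Foxa1 held TGTTTAC, a forkhead motif, on the opposite strand 141 bases before its start, and Cebpa held AGGGGGC, a stretch of the CTCF core, 51 bases before its start. Searched on both strands of the whole windows, ATTGATT was in 2 of the 11 member windows and in 2.86% of all 32851 promoters, TGTTTAC in 1 and 3.65%, and AGGGGGC in 4 and 10.6%. The 4 windows with AGGGGGC belonged to Cebpa, Foxa2, Foxa3 and Onecut1. AGNNCAAAG, a stretch of the HNF4 motif, TTGCNCAA, a C/EBP motif, and the inverted repeat that FXR binds were in none of the 11 windows and in 6.55%, 2.94% and 0.0274% of all promoters. No match overlapped another in the printed windows, and a match is a run of letters, not a measured binding site.

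Library totals ran from 49.8 M to 131.6 M assigned fragments. Levels are CPM (counts scaled to a common library size), adjusted by TMM (trimmed mean of M-values) within each tissue and given as mean ± SD over 3 libraries. Where no fragment was counted, up to 3 may have been missed, equal to 0.0228 to 0.0602 CPM by library total, and this limit and all count intervals cover counting error only. Ctcf checked the genotype labels: its 3 Ctcf+/- libraries lay below all 3 WT libraries in each tissue, with log2 differences from -0.57 in muscle to -0.70 in kidney, and it passed the test in brain alone. Several libraries held transcripts of other organs. The 7 hepatocyte markers summed to 34.5 to 44.2 CPM in WT spleen and 0.09 to 0.37 CPM in Ctcf+/- spleen, where Ahsg and Fgb were at 0. The 7 kidney tubule markers summed to 12.5 to 25.3 CPM in Ctcf+/- spleen and 0.13 to 0.41 CPM in WT spleen, where Kap, Umod and Aqp2 were at 0. The same tubule markers summed to 75.5 CPM in WT muscle 2, 10.7 and 10.5 CPM in WT muscle 1 and 3, and 0.11, 0.20 and 6.35 CPM in the Ctcf+/- muscle libraries. The labelled tissues carried their own markers: the hepatocyte markers summed to at least 150263 CPM in liver and the tubule markers to at least 23813 CPM in kidney.

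Liver held 7 of the 8 factors above 1 CPM in every library and kidney held 5. Brain, muscle and spleen held Cebpa alone at such levels, and elsewhere only Hnf4a in WT muscle 2 passed 1 CPM. Hnf4a, with 4828 exonic bases at chr2:163506808-163572910, was the most abundant in CPM. Hnf4a measured 696, 729 and 693 CPM in WT kidney and 756, 618 and 645 CPM in Ctcf+/- kidney. In liver it measured 430, 759 and 493 CPM in WT and 514, 491 and 444 CPM in Ctcf+/- libraries. The kidney and liver ranges overlapped on this scale, which is set within each tissue. With TMM over all 30 libraries they did not, at 688 to 1221 CPM in liver and 478 to 601 CPM in kidney. The kidney WT libraries differed by a factor of 1.05 from lowest to highest and the liver WT libraries by 1.76. Brain held 0 to 5 counts per library.

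Cebpa (chr7:35119293-35121928) was the only member above 1 CPM in every library of the 5 tissues. Its WT levels ran in the order liver (374 ± 66.6 CPM), kidney (92.3 ± 4.47), spleen (19.5 ± 6.04), brain (10.7 ± 1.93) and muscle (5.99 ± 2.16). The libraries of neighbouring tissues did not overlap in this order among WT samples on the scale set within each tissue. With TMM over all 30 libraries, WT muscle (5.66 to 12.5 CPM) overlapped WT brain (6.15 to 9.04) and WT spleen (10.4 to 18.0). The place of muscle in the order therefore depends on the scaling. On the within-tissue scale with the Ctcf+/- libraries included, muscle reached 19.0 CPM and overlapped brain and spleen.

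Nr1h4 (chr10:89454234-89533585) was shared by liver and kidney. It measured 125, 134 and 111 CPM in WT liver and 131, 132 and 121 CPM in Ctcf+/- liver. In kidney it measured 72.3, 95.3 and 75.5 CPM in WT and 81.2, 105 and 78.8 CPM in Ctcf+/- libraries. All 6 liver libraries lay above all 6 kidney libraries on this scale, and brain, muscle and spleen stayed at 0.234 CPM or less.

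The forkhead genes separated the tissues further. Foxa2 (chr2:148042877-148046969) measured 62.2, 29.6 and 51.7 CPM in WT liver and 31.7, 32.8 and 38.6 CPM in Ctcf+/- liver, against 1 to 6 counts per kidney library. Foxa3 (chr7:19013284-19023538) measured 58.0, 73.0 and 41.7 CPM in WT liver, 70.8, 70.0 and 23.9 CPM in Ctcf+/- liver, and 0.0950 to 0.295 CPM in kidney. Foxa1 (chr12:57540631-57546121) measured 26.5, 12.5 and 19.0 CPM in WT liver and 19.2, 15.7 and 12.8 CPM in Ctcf+/- liver. Foxa1 was also present in kidney at 1.53 to 3.43 CPM and in brain at 0.303 to 0.770 CPM. Foxa1 was the forkhead gene with a kidney level above 1 CPM, while Foxa2 and Foxa3 stayed at 0.295 CPM or less there.

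Onecut1 and Pax8 each passed 1 CPM in a single tissue of the 5, with up to 0.272 CPM of Onecut1 outside liver and up to 0.155 CPM of Pax8 outside kidney. Onecut1 (chr9:74861921-74891781) measured 12.8, 2.26 and 30.0 CPM in WT liver and 7.13, 7.38 and 8.64 CPM in Ctcf+/- liver. Of its 4113 exonic bases, 2171 overlap the gene model Gm20649 on the same strand and were not counted for it, so its CPM understates it. Gm20649 itself was at 0.0164 CPM or less in liver. Onecut1 had 2 counts in 1 kidney library, 0 in the other 5 and 0 in all 6 muscle libraries. Pax8 (chr2:24420560-24475599) measured 55.4, 51.9 and 56.0 CPM in WT kidney and 57.6, 52.3 and 51.5 CPM in Ctcf+/- kidney, against 0 to 3 counts per liver library.

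**Figure D1:**
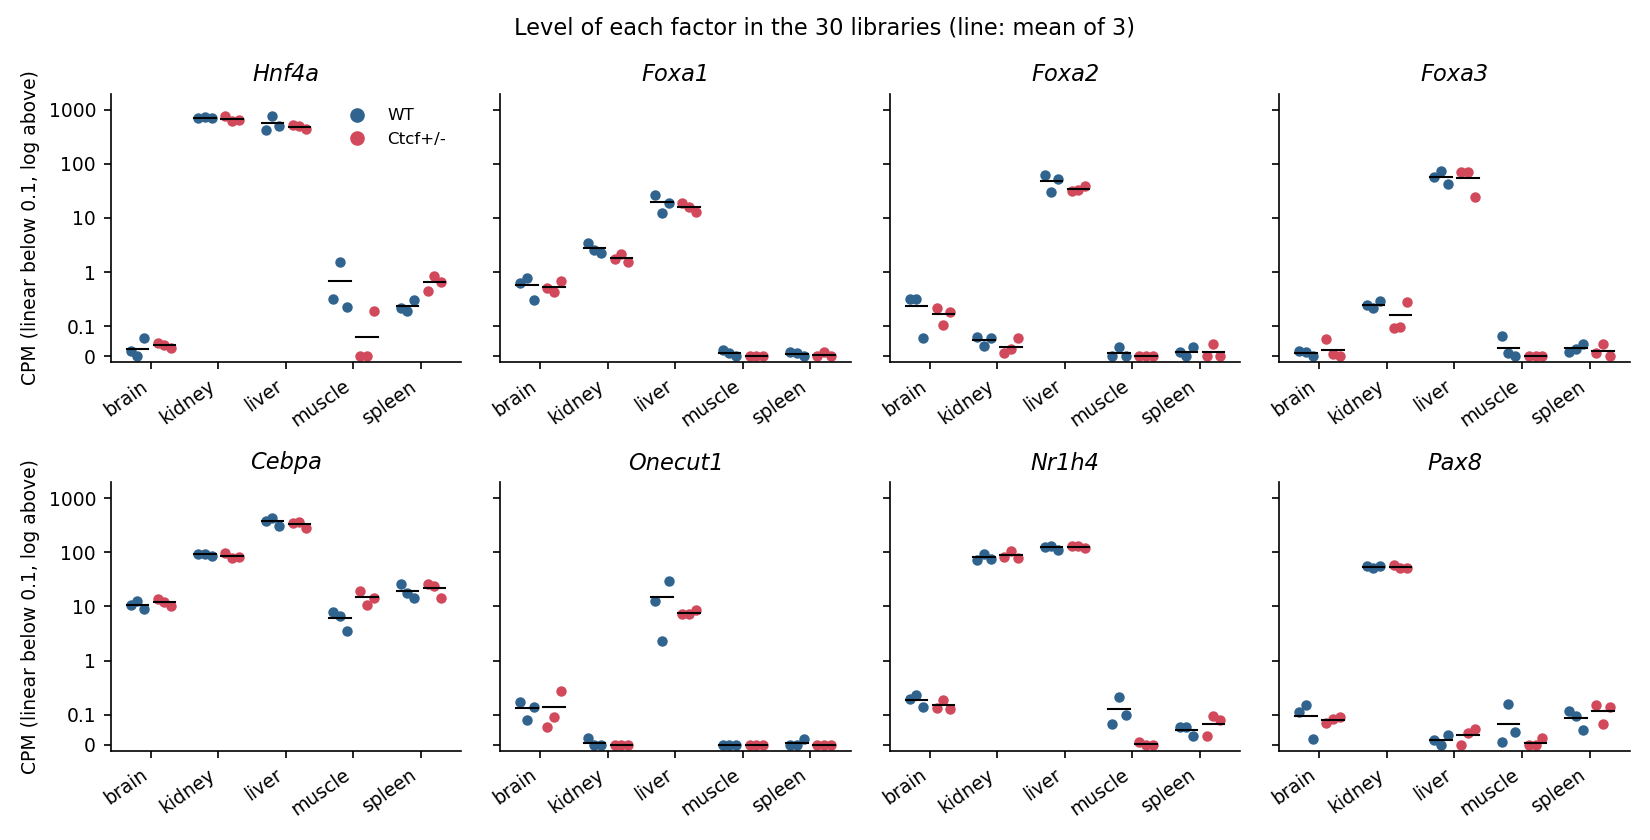
Level of each factor in CPM (TMM-scaled within each tissue; axis linear below 0.1 and logarithmic above) in 3 WT (blue) and 3 Ctcf+/- (red) libraries of 5 tissues, with the mean of each 3 as a line. Liver holds 7 of the factors, Pax8 is at 51.5 to 57.6 CPM in kidney alone, and Cebpa is present in every tissue.

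Genes were compared with each other per kilobase of exon not shared with another gene. In WT liver, Cebpa reached 145 ± 25.8 CPM per kb, Hnf4a 116 ± 36.1, Nr1h4 53.6 ± 4.90, Foxa3 28.3 ± 7.69, Foxa2 20.2 ± 7.01, Onecut1 7.72 ± 7.20 and Foxa1 6.07 ± 2.20. The ranges of neighbours overlapped over the WT libraries for Cebpa and Hnf4a, Foxa3 and Foxa2, Foxa2 and Onecut1, and Onecut1 and Foxa1. Within each of the 6 liver libraries, Cebpa was above Hnf4a and Foxa2 above Onecut1, while the order of Foxa3 and Foxa2 and of Onecut1 and Foxa1 changed between libraries. In WT kidney the order was Hnf4a (146 ± 4.09 CPM per kb), Cebpa (35.7 ± 1.73), Nr1h4 (35.2 ± 5.41), Pax8 (9.56 ± 0.387) and Foxa1 (0.862 ± 0.192). Cebpa and Nr1h4 overlapped there, and the other neighbours did not. Hnf4a was the highest member in each kidney library and Cebpa in each liver library.

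The comparison of WT liver with WT kidney asked how far the level of each factor differs between these organs in bulk tissue. Foxa1, Foxa2, Foxa3, Cebpa, Onecut1 and Nr1h4 were higher in liver, Pax8 was higher in kidney, and the direction of Hnf4a depended on the scaling. In edgeR's quasi-likelihood test, 8 of 8 members had a Benjamini-Hochberg adjusted p under 0.05, which is what calling means throughout. Of all 18310 genes tested, 64.4% were called, 29.9% higher in liver and 34.5% higher in kidney, so a call alone sets a member little apart. Foxa2, Onecut1 and Pax8 passed the filter on low counts only through the organ where they are high, so a difference was built into their selection.

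Cebpa differed by a log2 of 3.02 ± 0.17 (SE, n = 3 against 3), which is 8.09-fold (edgeR adjusted p = 3.0e-06). Nr1h4 differed by 1.61 ± 0.15, or 3.04-fold (edgeR adjusted p = 3.93e-05). Foxa1 differed by 3.81 ± 0.31, or 14.0-fold (edgeR adjusted p = 1.9e-05). These 3 genes were expressed in both organs, and their WT libraries did not overlap between them. The levels printed above are scaled within each tissue and so stay close to the library totals. Folds fitted on library totals, without TMM, were smaller, 3.93 for Cebpa, 1.49 for Nr1h4 and 6.92 for Foxa1. Foxa3 differed by 8.83 ± 0.30 and Foxa2 by 10.76 ± 0.42 on the log2 scale, with 19 to 29 counts of Foxa3 and 3 to 6 of Foxa2 per WT kidney library.

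Pax8 had 15396 counts in the 3 WT kidney libraries and 3 in the 3 WT liver libraries, a ratio of 3468 between their CPM with a 95% counting interval of 1187 to 16820. Onecut1 had 2826 counts in WT liver and 2 in WT kidney, a ratio of 2091 with an interval of 578 to 17272. Their fitted log2 values (-10.64 for Pax8 and 11.68 for Onecut1) rest on these few counts: without WT liver 3 Pax8 moved to -11.56, and without WT kidney 1, which held both Onecut1 counts, Onecut1 moved to 13.70. Leaving out WT liver 3, where Onecut1 was highest, gave 10.76. The direction of both genes was the same in each of these fits.

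Hnf4a was the member whose comparison turned with the scaling. With TMM across both organs it was 0.67 ± 0.23 higher in liver on the log2 scale (edgeR adjusted p = 0.0319), and with total counts it was -0.38 ± 0.18, that is lower in liver (edgeR adjusted p = 0.0878). The same change of scaling moved the median over all genes by -1.02 and the share of calls that were higher in liver from 46.4% to 14.1%. The TMM factors over the 30 libraries were 0.561 to 0.729 in liver and 1.24 to 1.31 in kidney. The call of Hnf4a was also lost without WT kidney 1, 2 or 3 (adjusted p = 0.0839, 0.0739 and 0.0908) and without WT liver 2 (0.0650). The other 7 members kept their direction under both scalings: under total counts Nr1h4 was 0.58, Cebpa 1.97 and Foxa1 2.79 higher in liver.

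**Figure D2:**
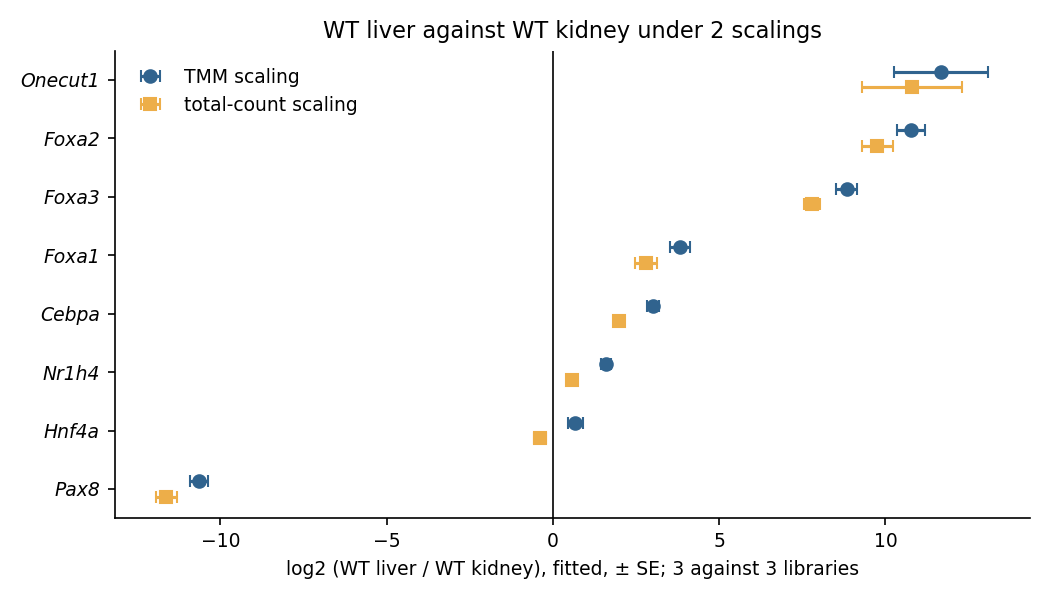
Fitted log2 ratio of WT liver over WT kidney for each factor, with its standard error (3 against 3 libraries), under TMM scaling (blue circles) and total-count scaling (yellow squares). Each gene moves by about the shift of the all-gene median, and Hnf4a is the gene whose 2 values lie on opposite sides of 0, at 0.67 and -0.38; the values of Onecut1 and Pax8 rest on 2 and 3 counts in the low organ.

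Partner factors and targets were followed in the same comparison. Most of these lists were drawn up for liver or kidney, so their direction was largely set by that choice and supports nothing by itself. Of all genes tested, 29.9% were higher in liver and 34.5% higher in kidney. Of 20 other liver transcription factors, 16 were higher in liver, 2 were higher in kidney and 2 were not called. Onecut2, the paralogue of Onecut1, measured 66.6 CPM in liver and 0.0205 CPM in kidney, and Nr5a2, an orphan nuclear receptor of bile acid synthesis, measured 53.8 and 0.513 CPM. The 2 higher in kidney were Hnf4g (3.81 against 0.260 CPM), the paralogue of Hnf4a, and Cebpd (37.8 against 5.11 CPM), a relative of Cebpa. Of 18 other kidney transcription factors, 17 were higher in kidney, among them Pax2, the paralogue of Pax8, at 41.1 CPM against 0.00546, and the 1 not called was Sall1. Of 17 bile acid genes tested, 15 were higher in liver, and the 2 higher in kidney were Slc51a and Slc51b, the subunits of the basolateral bile acid exporter. All 15 kidney epithelial genes were higher in kidney and 19 of 22 hepatocyte target genes in liver, where Pck1, G6pc and Igfbp1 were not called. Genes absent from an organ, such as Slc12a1 at 0 in liver, passed the filter only through the other organ, so part of these counts is also built in by the filter. Every called gene of these lists had the same direction by library totals.

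The comparison of Ctcf+/- with WT asked whether the loss of a Ctcf copy changes the factors in each tissue. No member was called in any of the 5 tissues by edgeR's quasi-likelihood test on that tissue's 6 libraries. In liver 0 of 7 tested members were called, against 0.0193% of 15584 genes, 0 had an unadjusted p under 0.05, against 4.56%, and 0 had groups that did not overlap, against 8.97%. DESeq2 called 0 there as well. In kidney 0 of 6 were called, against 0.0211% of 18937 genes, and 1 had an unadjusted p under 0.05 and groups that did not overlap, against 6.44% and 11.4%. A count of 1 of 6 sets the members little apart from all genes. DESeq2 called 0 in kidney. The exact permutation test of single levels cannot go below p = 0.1 with 3 against 3 libraries.

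Intervals in liver show what sizes the data allow. Nr1h4 was the tightest, at a log2 of 0.05 (95% interval -0.24 to 0.33). Cebpa was at -0.18 (-0.58 to 0.23), Hnf4a at -0.21 (-0.71 to 0.28) and Foxa1 at -0.28 (-0.89 to 0.33). Foxa2 had the smallest unadjusted p of the liver members, 0.0857, at -0.48 (-1.04 to 0.08). Foxa3 was at -0.07 (-0.94 to 0.81) and Onecut1 at -0.96 (-2.53 to 0.61). Of the 7 values, 6 were below 0 and the median was -0.21, beside -0.01 over all genes, and every interval included 0.

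In kidney Pax8 was at -0.02 (-0.20 to 0.17), Hnf4a at -0.07 (-0.31 to 0.17), Cebpa at -0.11 (-0.36 to 0.13) and Nr1h4 at 0.13 (-0.21 to 0.46). These 4 intervals included 0 and lay within 0.46 of it. Foxa3, at 8 to 29 counts per library, was at -0.65 (-1.73 to 0.44), and at -1.38 without Ctcf+/- kidney 3. That library held 28 counts of Foxa3, and Ctcf+/- kidney 1 and 2 held 9 and 8. The 7 hepatocyte markers summed to 206, 172 and 509 CPM in Ctcf+/- kidney 1, 2 and 3. In WT kidney they summed to 165 to 187 CPM. Their part in the Foxa3 value was not tested. Of the 6 tested values 5 were below 0, and 1 of the 6 intervals, that of Foxa1, did not include 0. Foxa1 measured 3.43, 2.58 and 2.24 CPM in WT kidney and 1.71, 2.18 and 1.53 CPM in Ctcf+/- kidney. The groups did not overlap, at a log2 of -0.61 ± 0.22 (edgeR p = 0.0255, adjusted p = 0.660; exact permutation p = 0.1), with 3 of 3 Ctcf+/- libraries below every WT library. Krt19, a keratin of bile ducts and other simple epithelia, stood beside it at 24.9, 22.5 and 19.5 CPM in WT and 10.9, 13.7 and 15.0 CPM in Ctcf+/- kidney (edgeR adjusted p = 0.214). Of the 5 bile duct markers, which kidney also expresses, 2 were higher and 1, Krt19, was lower in all 3 Ctcf+/- kidneys. The 5 together moved the other way from Krt19, at 1902 to 2057 CPM in WT and 2409 to 2679 CPM in Ctcf+/- kidney. Spp1 alone averaged 1600 CPM in WT kidney. The part of these markers in the Foxa1 values was not tested.

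**Figure D3:**
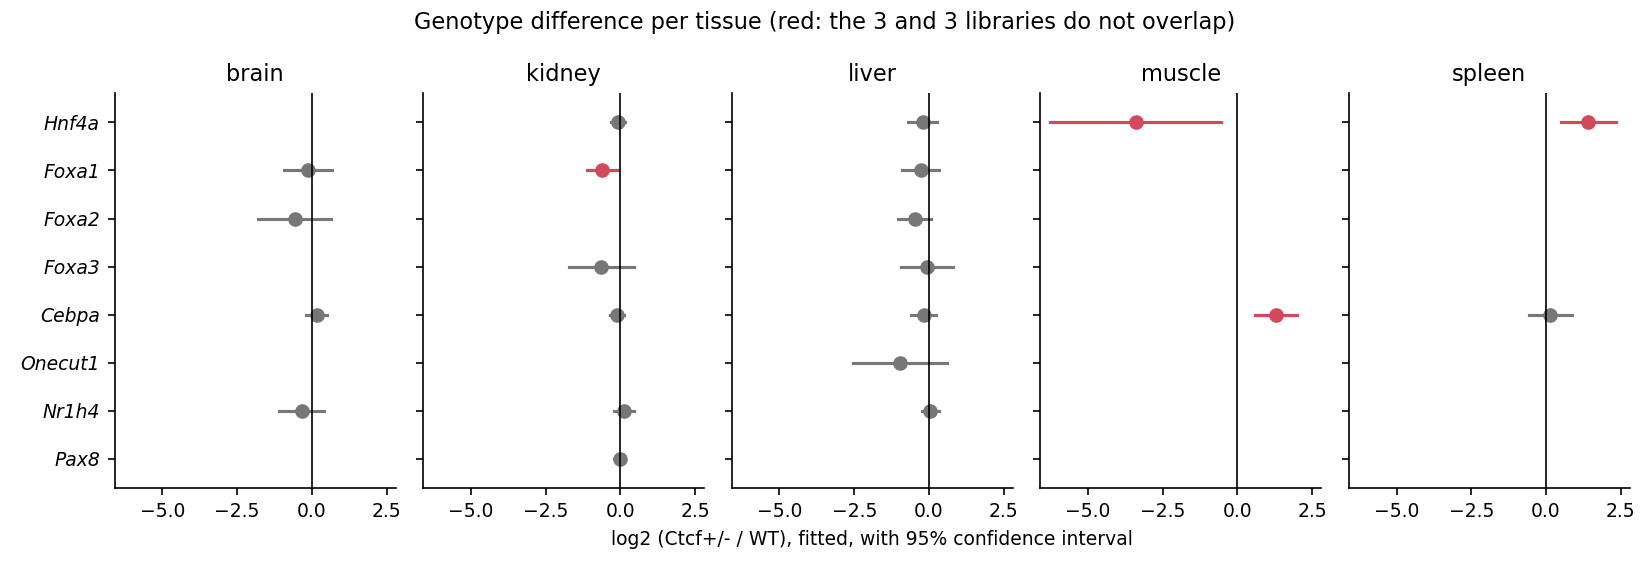
Fitted log2 ratio of Ctcf+/- over WT with its 95% confidence interval for each member that passed the filter on low counts in a tissue (3 against 3 libraries); red marks members whose groups do not overlap. Liver and kidney values run from -0.96 for Onecut1 in liver to 0.13 for Nr1h4 in kidney, and the red points are Foxa1 in kidney at -0.61, Cebpa in muscle at 1.29 and Hnf4a in muscle at -3.41 and in spleen at 1.42, none of them called.

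The genotype difference was compared between liver and kidney with an interaction term over the 12 libraries of these organs. None of the 8 members was called by edgeR, against 0.0103% of 19392 genes, and the smallest unadjusted p was 0.390, for Foxa1. DESeq2 called 0 members too. For Hnf4a the difference of differences was -0.15 (95% interval -0.75 to 0.45) and for Nr1h4 -0.08 (-0.52 to 0.36). Onecut1 and Pax8, each nearly absent from 1 of the organs, had intervals of -4.66 to 7.16 and -1.27 to 2.82, far too wide to bound a difference.

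Single liver libraries stood apart for several factors. WT liver 2 had the highest Hnf4a (759 CPM) and Cebpa (439 CPM) of the 6 libraries. It also had the highest Foxa3 and Nr1h4 with TMM, but by total counts Ctcf+/- liver 1 was highest for both, at 75.3 against 66.0 CPM for Foxa3 and 139 against 121 CPM for Nr1h4. The same library had the lowest Onecut1 (2.26 CPM), Foxa2 (29.6 CPM) and Foxa1 (12.5 CPM). WT liver 3 had the highest Onecut1, 13.3 times that of WT liver 2. Genes chosen after their values were seen also stood apart in WT liver 2: the clock output gene Dbp measured 52.3 CPM against 2.46 to 18.7 in the other 5, Per1 30.9 against 5.73 to 9.25, and Arntl 6.87 against 14.4 to 18.8. Hhex, an early liver homeobox gene chosen in the same way, was at 36.3 CPM there and 84.0 to 147 in the others. The part of these in the spread of the factors was not tested.

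Without WT liver 2 the log2 difference of Hnf4a between genotypes became 0.07, and without WT liver 3 that of Onecut1 became 0.04. Ctcf+/- liver 3 had the lowest Foxa3 (23.9 CPM) and Cebpa (279 CPM) of the 6. Krt19 was at 12.98 CPM in that library and 0.939 to 1.62 CPM in the others, while the 5 bile duct markers together ran from 20.9 to 40.4 CPM over the 6 libraries. Without Ctcf+/- liver 3 the difference of Foxa3 became 0.29. The sign of Hnf4a, Onecut1 and Foxa3 in liver turned with single libraries, as did those of Foxa1 and Nr1h4, and all 5 intervals include 0.

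**Figure D4:**
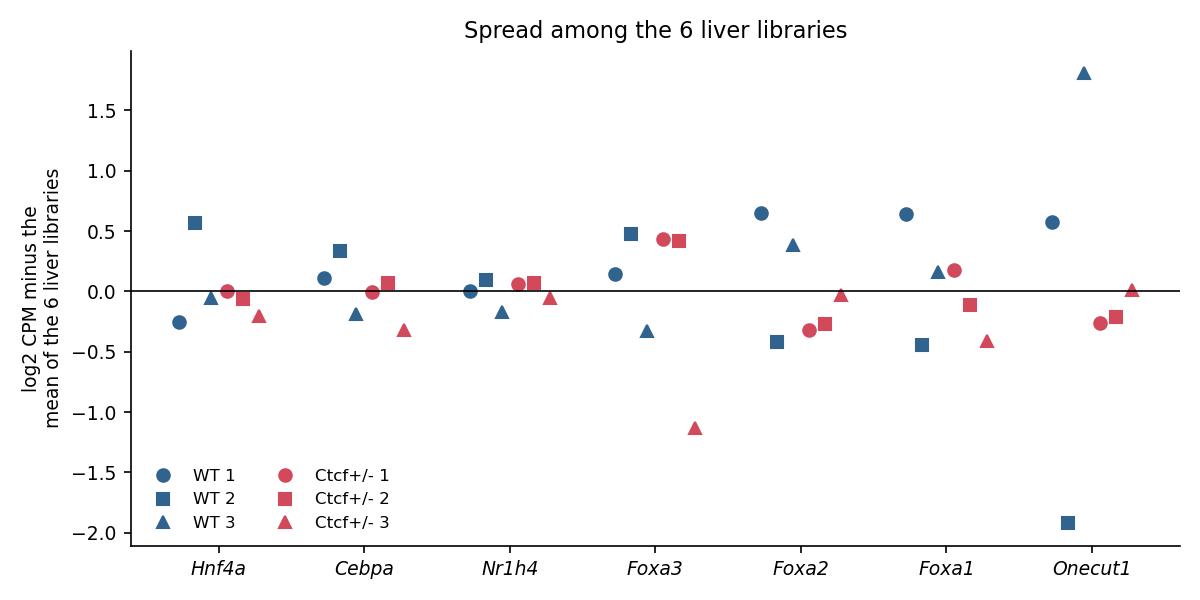
Log2 CPM of the 7 factors expressed in liver, in each of the 6 liver libraries, minus the mean of the 6 on the log2 scale (blue WT, red Ctcf+/-; circle, square and triangle for replicates 1, 2 and 3). WT liver 2 (blue square) is highest for Hnf4a and Cebpa, highest for Nr1h4 and Foxa3 on this TMM scale but not by total counts, and lowest for Foxa2, Foxa1 and Onecut1, whose WT libraries range over a factor of 13.3.

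Targets of the factors were followed in liver from fixed lists. Of 22 hepatocyte target genes, 0 were called by edgeR and 0 had an unadjusted p under 0.05, with a median log2 difference of -0.10 beside -0.01 over all genes. Alb, the albumin gene, measured 118399 to 155943 CPM in WT and 111081 to 133748 CPM in Ctcf+/- liver. Of 16 bile acid genes tested, 0 were called. A single gene, 1 of 16, had an unadjusted p under 0.05 and groups that did not overlap, against 4.56% and 8.97% of all genes. That count is near these shares and so sets the list little apart. The gene was Nr0b2, which encodes SHP, the repressor that FXR induces, and it is named after its values were seen. Nr0b2 measured 35.6, 51.5 and 25.9 CPM in WT and 23.1, 20.3 and 18.9 CPM in Ctcf+/- liver, at a log2 of -0.86 ± 0.23 (edgeR adjusted p = 0.687). The groups did not overlap, while Nr1h4 itself differed by 0.05 in the same libraries. Of 20 other liver transcription factors, Nr0b2 among them, 0 were called in liver. The most abundant were Atf5, a stress-response factor (285 to 644 CPM in WT and 381 to 629 in Ctcf+/- liver), and Rxra, the partner of FXR and other nuclear receptors (331 to 426 and 282 to 333 CPM). Of 18 other kidney transcription factors 0 were called in kidney, where Tfcp2l1, a collecting duct factor, measured 292 to 354 CPM in WT and 240 to 371 in Ctcf+/- libraries.

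In muscle Cebpa had all its Ctcf+/- values above WT and Hnf4a all its values below, and neither passed the test of the 6 libraries. Of 2 tested members, 0 were called by edgeR, against 0.0249% of 16064 genes, and both had an unadjusted p under 0.05 and groups that did not overlap, against 6.45% and 12.2%. Cebpa measured 7.73, 6.67 and 3.57 CPM in WT and 19.0, 10.5 and 14.5 CPM in Ctcf+/- muscle, at a log2 of 1.29 ± 0.31 (edgeR p = 0.00308, adjusted p = 0.384; exact permutation p = 0.1). All 3 Ctcf+/- libraries lay above all 3 WT libraries. DESeq2 called Cebpa (adjusted p = 0.00294), and so did edgeR with all 30 libraries sharing the estimate of spread (adjusted p = 0.0144).

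Values of fat-cell genes are given beside Cebpa. EdgeR called 0 of the 5 adipocyte markers (smallest adjusted p = 0.233), and all 5 had an unadjusted p under 0.05. The 5 adipocyte markers summed to 22.5 to 67.6 CPM in WT and 120 to 319 CPM in Ctcf+/- muscle, and 4 of the 5 did not overlap between genotypes. Adipoq, the adiponectin gene, measured 7.90, 7.06 and 2.36 CPM in WT and 36.5, 12.8 and 22.8 CPM in Ctcf+/- muscle. Cfd, the adipsin gene, measured 17.1 to 49.99 CPM in WT and 237, 89.8 and 178 CPM in Ctcf+/- muscle. The 6 libraries stood in the same order for Cebpa, Adipoq, Cidec and Cfd, from Ctcf+/- 1 down to WT 3. Their part in the Cebpa result was not tested.

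Hnf4a in muscle was a trace. It had 33, 157 and 21 counts in WT and 0, 0 and 18 counts in Ctcf+/- libraries, which is 0.317, 1.52 and 0.230 CPM against 0, 0 and 0.192 CPM. The log2 difference was -3.41 (95% interval -6.26 to -0.55; edgeR p = 0.0249, adjusted p = 0.650; exact permutation p = 0.1). Hnf4a passed the filter on low counts there through the WT libraries, where it is higher, and so its separation supports nothing by itself. Without WT muscle 2 the difference was -2.08 (edgeR adjusted p = 0.850), and without Ctcf+/- muscle 3, which leaves counts of 0 in that group, no fold could be given. It was called with all 30 libraries in the fit (adjusted p = 0.0174), as was Nr1h4, which had 7, 22 and 9 counts in WT and 1, 0 and 0 in Ctcf+/- muscle and was not tested in the 6 libraries. WT muscle 2 held the most Hnf4a, Nr1h4 and Pax8, and also the most Kap, at 46.2 CPM beside 5.82 and 5.38 in WT 1 and 3. In WT muscle 2, Hnf4a stood at 0.215% of its WT kidney level, Nr1h4 at 0.263%, Kap at 0.308% and Umod at 0.232%. In Ctcf+/- muscle 1 and 2, Hnf4a was at 0 and Kap was at 0.

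In spleen the trace of Hnf4a ran the other way. Hnf4a measured 0.219, 0.192 and 0.302 CPM in WT and 0.440, 0.840 and 0.647 CPM in Ctcf+/- spleen, from 15 to 62 counts per library. The groups did not overlap, at a log2 of 1.42 ± 0.38 (edgeR p = 0.00770, adjusted p = 0.654; exact permutation p = 0.1), with 3 of 3 Ctcf+/- libraries above every WT library. Of the 2 members tested in spleen, 0 were called, against 0.242% of 18615 genes, and 1 had an unadjusted p under 0.05 and groups that did not overlap, against 3.52% and 6.65%. DESeq2 called 0 members there. Hnf4a stood at 0.0272% to 0.0427% of its WT kidney level in WT spleen and at 0.0623% to 0.119% in Ctcf+/- spleen, where Kap stood at 0.0459% to 0.0971%.

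Liver and kidney genes were also measured in spleen. Of 13 kidney epithelial genes tested, Umod, Slc12a1 and Cdh16, which encode uromodulin, the salt transporter of the loop and a kidney cadherin, were called higher in Ctcf+/- spleen. Umod had 0 counts in the WT libraries and Cdh16 2 to 4, so they passed the filter through the Ctcf+/- libraries and a difference was built in. Of 21 hepatocyte target genes tested, 11 were called lower, among them Alb, at 23.9 to 30.5 CPM in WT and 0.0200, 0.0689 and 0.104 CPM in Ctcf+/- spleen. Alb had 2 to 10 counts there and passed the filter through the WT libraries, so a difference was built in for it too. The same holds for any other gene of either list near 0 counts in the genotype where it is low. The numbers called therefore support nothing by themselves. Over all 18615 genes tested, 0.242% were called. Hnf4a, which both organs express, lay beside a liver trace in WT spleen and a kidney trace in Ctcf+/- spleen. A trace of pancreas was present too. The 7 pancreatic acinar markers summed to 29.8, 1995 and 28.0 CPM in Ctcf+/- spleen 1, 2 and 3. In WT spleen they summed to 22.9 to 257 CPM. The part of these traces in the level of Hnf4a was not tested. Cebpa in spleen measured 26.2, 17.9 and 14.4 CPM in WT and 26.3, 23.9 and 14.4 CPM in Ctcf+/- libraries, at a log2 of 0.15 (95% interval -0.58 to 0.88). The 7 neutrophil and macrophage markers summed to 4408, 1349 and 1400 CPM in WT and 5649, 3615 and 2704 CPM in Ctcf+/- spleen. S100a8, a neutrophil granule gene from this list, was highest in replicate 1 of both genotypes, at 940 and 1359 CPM. The part of these markers in the level of Cebpa was not tested.

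**Figure D5:**
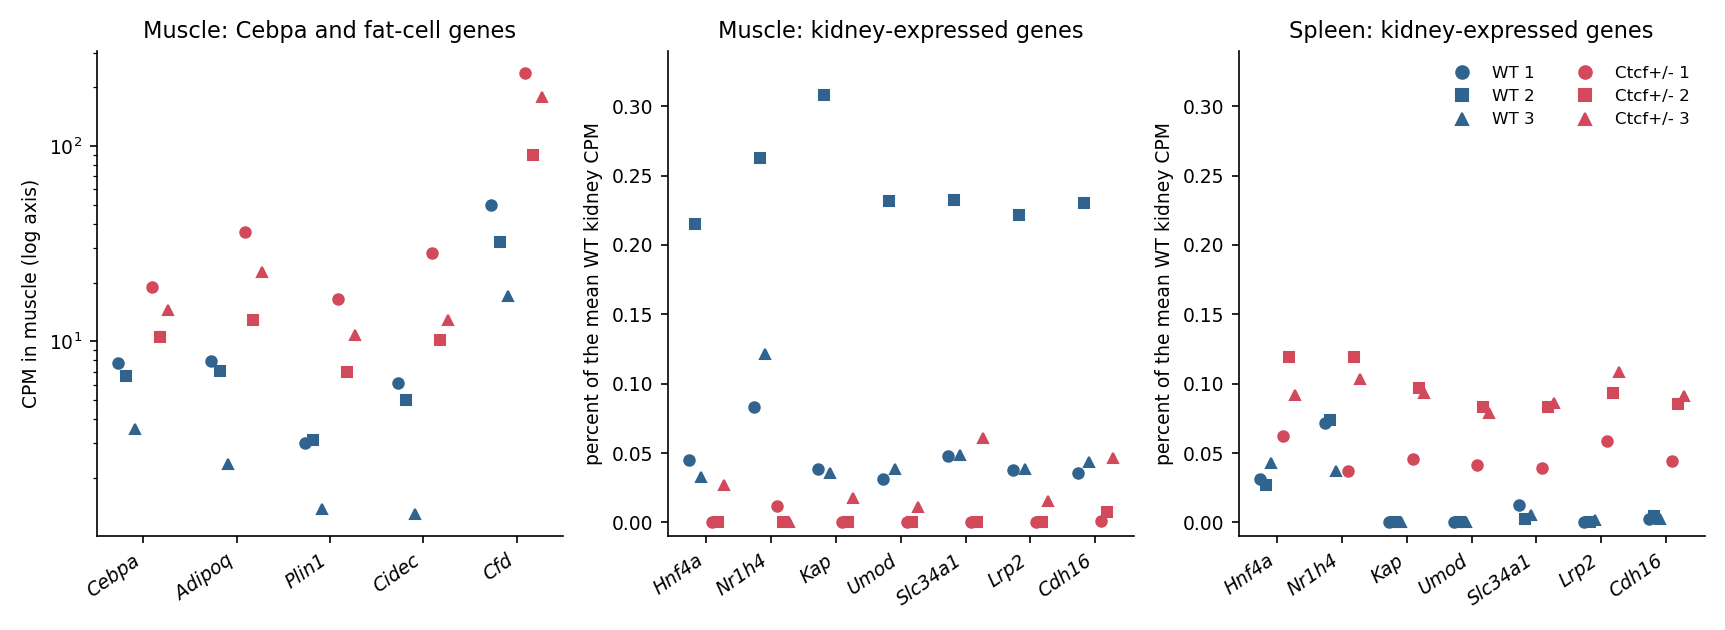
Left, CPM on a log axis of Cebpa and 4 fat-cell genes in the 6 muscle libraries; middle and right, kidney-expressed genes in muscle and in spleen as a percent of their mean WT kidney CPM (blue WT, red Ctcf+/-; circle, square and triangle for replicates 1, 2 and 3). All 5 genes on the left are higher in the 3 Ctcf+/- libraries. Lep, the remaining adipocyte marker, is not drawn, and 4 of the 5 adipocyte markers did not overlap between genotypes. WT muscle 2 stands highest for Hnf4a (0.215%) and for each kidney gene shown, and in spleen the Ctcf+/- libraries are higher for Hnf4a and the 5 tubule markers.

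Brain held low levels of Foxa1 and Foxa2, which are known from midbrain dopaminergic neurons. Foxa1 measured 0.635, 0.770 and 0.303 CPM in WT and 0.497, 0.428 and 0.687 CPM in Ctcf+/- brain, and Foxa2 had 20, 23 and 3 counts in WT and 15, 14 and 14 in Ctcf+/- brain. WT brain 3 was lowest for both. Th was lowest there too (9.04 CPM, the others 10.1 to 19.6), and so was Slc6a3 (4.16 CPM, the others 9.14 to 20.9). The 5 dopaminergic markers, these among them, summed to 60.9, 62.2 and 30.4 CPM in WT brain 1, 2 and 3. In Ctcf+/- brain they summed to 42.2 to 67.5 CPM. Of 4 tested members in brain, 0 were called, against 0.0157% of 19166 genes, 0 had an unadjusted p under 0.05, against 2.96%, and 0 had groups that did not overlap, against 7.83%. DESeq2 called 0 there. Cebpa in brain was at a log2 of 0.16 (95% interval -0.19 to 0.51), and the part of the sampled region in the Foxa values was not tested.

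The genes with the most similar profiles were taken from the 3 with the highest Pearson r on log2(CPM + 0.5) over the 30 libraries, among 16167 genes. These r values describe differences between 5 tissues more than between libraries, and all genes share the libraries and their depth. Hnf4a was nearest to Cyp2j5 and Rdh16f2 (r = 0.999 for each), and Nr1h4 to Acox2, Acot12 and Acnat2 (0.999 for each). Pax8 was nearest to Slc5a9, Atp6v1b1 and Slc6a20b (0.999 for each). Foxa3 was nearest to Cyp3a59, Cyp2c38 and Hsd17b6 (0.996 for each), and Foxa2 to Urad, Mup21 and Cyp2c39 (0.995 for each). The profiles of Foxa1, Cebpa and Onecut1 had looser neighbours: Abcc6 (0.987), Selenop and Dsc2 for Foxa1, C1rl (0.983), Adh5 and Akr1c12 for Cebpa, and P2ry4 (0.985), Sult3a1 and Urad for Onecut1. Foxa2 and Onecut1 shared Urad. Genes of the Cyp2c, Cyp3a and Mup families have near-identical copies, and fragments that fit several places were not counted, so their values are uncertain.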

How the data were processed

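Total RNA of 5 mouse tissues was sequenced in 30 libraries, after a TRIzol extraction and DNase treatment, per the labels' protocols. The deposited values are raw fragment counts, which the authors obtained from featureCounts 1.5.0-p3 and the Ensembl release 86 annotation of GRCm38, paired and without strand, per the file headers. Fragments that hit several genes or places were not counted, so bases shared with another gene are lost. STAR, FastQC and DESeq2 are named in the submitters' processing notes, with no version given in the sources used here.

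Members were matched by gene identifier (48349 of 48709 genes had a symbol). Counts were tested with edgeR 4.0.16 in R 4.3.3: low counts were removed with filterByExpr, libraries were scaled by TMM, and quasi-likelihood p-values were adjusted by Benjamini-Hochberg across the genes tested, with a threshold of 0.05. Printed levels are CPM scaled by TMM within each tissue, and levels per kb use exonic bases that no other gene shares. Each tissue was fitted alone, WT liver against WT kidney in 6 libraries, and the interaction in 12. DESeq2 1.42.0, other scalings and filters, all 30 libraries, a replicate block and leaving out each library were alternatives. The test was tested on simulated data. Tables were made with Python 3.11.15, pandas 2.3.3 and SciPy 1.17.1. Same-numbered WT and Ctcf+/- libraries correlated above 0.1 in all 3 pairs in brain (r = 0.298 to 0.657) and kidney (0.228 to 0.280). The labels do not say what the numbers share, so pairing there is possible but not established. The printed tests are unpaired, and the fit with the replicate block changed no call of a member in these tissues. Members and lists were chosen with earlier results of these data known. The text names the members, list genes that were called or else the most abundant, up to 3 nearest profiles per member, and Ctcf. Genes outside this rule are stated to be chosen after their values were seen, apart from the cell type markers given beside a result. Results on some genes and motifs of the lists are not reported here.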

Additional observations from a re-analysis of the deposited data

Results flagged for a closer look

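Hnf4a was higher in every Ctcf+/- spleen library (log2 1.42) and lower in every Ctcf+/- muscle library (-3.41) than in the WT libraries of the same tissue, that is, the groups separated in opposite directions in these tissues. A test of the difference, added after the directions were seen, gave a log2 of 4.80 (95% interval 1.58 to 8.02; edgeR quasi-likelihood adjusted p = 0.460 over 20492 genes, 25 of them called). All 12 values were at 1.52 CPM or less, and kidney tubule markers were highest in the same groups, WT muscle and Ctcf+/- spleen; their part in the difference was not tested.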

How the results depend on the processing

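Over the alternatives, 517 values of a member's log2 difference were recomputed: 480 kept their direction and their side of the threshold, 7 lost the call, 4 gained it and 26 changed sign. The number of members called between genotypes stayed at 0 in brain, kidney, liver and spleen and in the interaction of liver and kidney. In muscle it became 1 with DESeq2 (Cebpa), 3 with all 30 libraries (Hnf4a, Cebpa and Nr1h4) and 1 with the replicate block (Cebpa, edgeR adjusted p = 0.0413). Same-numbered muscle libraries correlated at r = 0.0856 to 0.410, so not every pair passed the minimum of 0.1. The highest of these was above the kidney values, and whether the numbers pair the muscle libraries is not known. In liver (0.0489 to 0.280) and spleen (-0.536 to 0.420) not every pair passed the minimum either. The block changed no other call. Between WT liver and WT kidney, 4 of 8 members were called with the stricter filter of 10 counts in every library, since it removes Foxa2, Onecut1 and Pax8, and Hnf4a lost its call with the looser filter, the stricter filter and all 30 libraries (log2 0.58, 0.55 and 0.66).

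With total counts the sign turned for Hnf4a between WT liver and WT kidney (-0.38), for Foxa3 between genotypes in liver (0.0322) and for Cebpa in the interaction (0.0149). Leaving out single libraries turned the sign of uncalled values only. In brain Foxa1 ranged from -0.40 to 0.16. In kidney Nr1h4 ranged from -0.0182 to 0.26 and Pax8 from -0.0695 to 0.0123. In liver Hnf4a ranged from -0.37 to 0.0665, Foxa1 from -0.52 to 0.0160, Foxa3 from -0.29 to 0.29, Onecut1 from -1.47 to 0.0352 and Nr1h4 from -0.0186 to 0.11. In spleen Cebpa ranged from -0.0323 to 0.42. In the interaction Hnf4a ranged from -0.29 to 0.15, Foxa2 from -0.21 to 1.07, Cebpa from -0.20 to 0.0770, Onecut1 from -0.95 to 2.28 and Nr1h4 from -0.21 to 0.0635. The cause was not tested. Of the 24 most similar genes, 9 stayed with a pseudocount of 0.05 and 12 with 2. Depth limits Hnf4a, Nr1h4 and Pax8 in brain, muscle and spleen, where single libraries held few or 0 counts.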
